A study of Caenorhabditis elegans with 9 samples.

Results

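The response of wild type Caenorhabditis elegans to hypoxia was read from the 3 arrays, of 9 in the series, on which both RNAs came from wild type worms. Each array was a spotted glass array on which total RNA labelled H (Cy3) competed with total RNA labelled N (Cy5) of the same replicate number. The series is titled for hypoxia, so H is read as hypoxia and N as normoxia. The other 6 arrays made the same comparison within worms labelled hif-1 (3 arrays) and vhl-1 (3 arrays), which are called the hif-1 mutant and the vhl-1 mutant here, and they are used for the spread of the test and for comparison. The labels give no allele, stage, sex, oxygen level, time or tissue for any group, and they do not state that the replicates were separate cultures; the p-values then reflect only how these samples vary, which may be technical. Both dyes kept the same role on every array, and a dye effect on a single probe would therefore remain in each response.

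Of 21888 spots, 7774 (35.5%) carried a gene name in the array annotation, and these made 7200 genes. The results turn on the 7179 of them measured on 2 or more arrays in each genotype; the other 21 genes were not tested. All values are log2 ratios of H over N, with each array centred on its median, so a positive value means more RNA in H. Neither the direction nor the base of the logarithm is stated. The direction is likely: it rests on the titles, which name N before H, and on the customary ratio of channel 2 to channel 1. With the opposite direction every rise would be a fall, and no p-value would change. The base was assumed to be 2, and every fold value depends on that.

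Hypoxia acts in worms, as in mammals, in large part through HIF-1, a transcription factor. In air an oxygen-dependent hydroxylase, EGL-9, marks HIF-1, and VHL-1, part of a ubiquitin ligase, then directs its destruction; low oxygen stops the marking and HIF-1 accumulates. Worms lacking hif-1 lose that branch of the response, and worms lacking vhl-1 have HIF-1 active in air already. Low oxygen also engages pathways outside HIF-1, such as heat shock proteins that hold unfolded proteins and the translation machinery. None of the HIF pathway genes listed (hif-1, egl-9, vhl-1, rhy-1 and aha-1 among them) had a named spot, so the genotypes could not be checked in their own transcripts. The named spots belong mostly to genes known only by clone names, so many of the responding genes have no described role. Because the RNA is read as that of whole animals, fewer cells of a type and less RNA per cell cannot be told apart.

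The 3 wild type arrays gave values for 21296, 21487 and 21433 spots. Their SD over spots was 0.63, 0.66 and 0.64 on the log2 scale, and 7.82% to 10.2% of spots lay beyond 1 in either direction. Over named genes, which are not independent of each other and share the array, arrays 2 and 3 resembled each other most, with a Pearson correlation of 0.453. Array 1 correlated at 0.204 with array 2 and at 0.0532 with array 3. The highest correlations of array 1 with any array were with vhl-1 mutant arrays 2 and 3 (0.399 and 0.374), and array 3 reached 0.294 with hif-1 mutant array 2. Where array 1 departs from the others it is stated below.

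**Figure D1:**
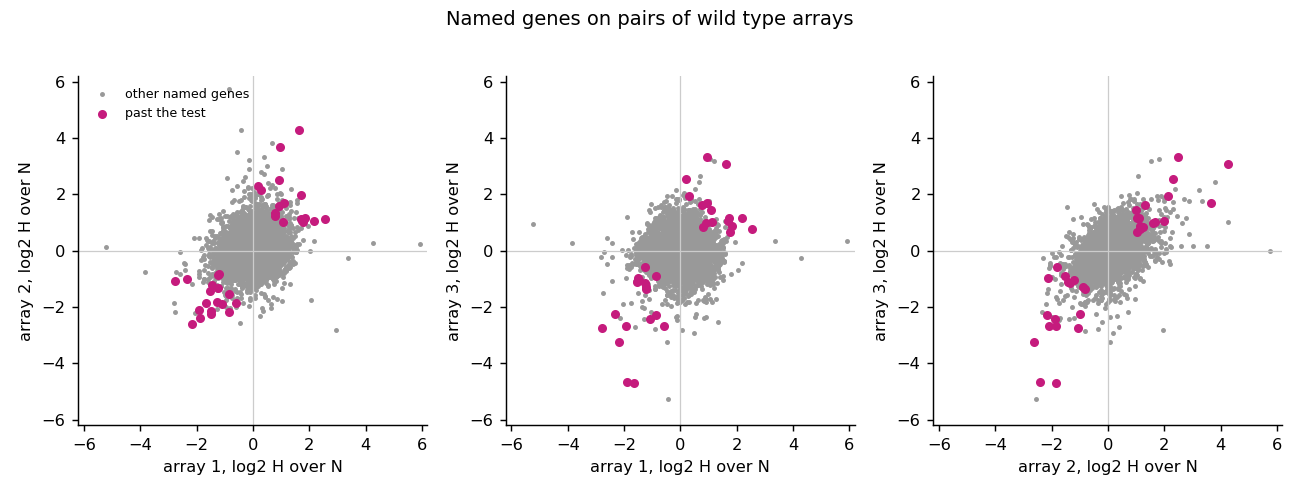
Log2 ratio of H over N for each named gene on pairs of wild type arrays (grey points), with the 34 genes past the test in colour. The cloud is elongated along the diagonal for arrays 2 and 3 (correlation 0.453) and close to round for arrays 1 and 3 (0.0532), while the coloured genes lie at the lower left and upper right of all 3 panels.

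In limma, with 1 mean per genotype fitted to all 9 arrays and Benjamini-Hochberg adjustment, 296 of 20858 features (1.42%) passed an adjusted p under 0.05 in wild type. Among them were 34 of the 7179 named genes (0.474%). Of these, 16 (0.223%) rose in H and 18 (0.251%) fell. Spots without a name passed more often, in 262 of 13679 (1.92%), with 31 higher (0.227%) and 231 lower (1.69%). Of the unnamed calls 152 lay at places of the print run that hold no named spot in any print block. All 14 places of the print run whose median wild type ratio was under -1 are such places. The medians at the places of the 34 named genes ran from -0.22 to 0.26. All 34 are annotated as protein-coding in RefSeq WBcel235, which gave the positions below.

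F26A3.4 (chromosome I, 7656978 to 7658291) had the largest rise of a named gene. Its log2 ratios were 1.62, 4.27 and 3.07 on arrays 1, 2 and 3, a mean of 2.98 ± 1.33 (SD, n = 3; SE of the fit 0.501; 7.91-fold; adjusted p = 0.00916 in limma). All 3 arrays were well above 0, array 1 was the lowest and array 2 the highest.

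F22B5.4 (chromosome II, 8449710 to 8452742), a gene widely used as a reporter of HIF-1 activity, was the only listed HIF-1 target with a named spot. It stood at 0.94, 2.50 and 3.33 on the 3 arrays. Its mean of 2.26 ± 1.21 (SD, n = 3) was a 4.79-fold rise, with an adjusted p of 0.00813 in limma. The next gene on the chromosome, F22B5.5, was at -0.13 and the one after it, F22B5.6, at -0.46, neither past the test.

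hsp-16.21 (chromosome V, 14463520 to 14464428), which encodes a small heat shock protein, a chaperone that binds unfolding proteins, stood at 0.95, 3.67 and 1.68. Its mean was 2.10 ± 1.41 (SD, n = 3; adjusted p = 0.0295 in limma), with array 2 far above the other two arrays. Fitted on the wild type arrays alone, hsp-16.21 did not pass (adjusted p = 0.0509 in limma). Its annotated span overlaps that of srz-97, which had no tested spot. The adjacent paralogue hsp-16.20 (14461947 to 14463338) stood at 0.38, 2.72 and 1.85, with the same order of weakest array. Its mean of 1.65 did not pass (adjusted p = 0.0959), and probes for such close relatives can hybridise to each other's RNA.

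A second pattern among the rises was a value near 0 on array 1 and far higher values on both others. F59B10.4 (chromosome II, 10513813 to 10519117) stood at 0.19, 2.31 and 2.56, a mean of 1.69 ± 1.30 (SD, n = 3; adjusted p = 0.0396). snrp-40.1 (chromosome X, 11298036 to 11299784), a homologue of a protein of the U5 particle of the spliceosome, stood at 0.30, 2.15 and 1.94. Its mean was 1.47 ± 1.01 (SD, n = 3; adjusted p = 0.0451 in limma). Its paralogue snrp-40.2 was at 0.44 and did not pass. The SEs behind these 2 calls, 0.367 for F59B10.4 and 0.326 for snrp-40.1, also draw on the spread of the mutant arrays. Neither F59B10.4 nor snrp-40.1 passed with the wild type arrays fitted alone (adjusted p = 0.0997 and 0.0911 in limma).

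Other rises were highest on array 1. npr-37 (chromosome IV, 461199 to 481167), of the neuropeptide receptor family of G protein-coupled receptors, stood at 2.56, 1.14 and 0.78, a mean of 1.49 (adjusted p = 0.0333). W04E12.4 (chromosome V, 19743642 to 19745753) stood at 2.17, 1.05 and 1.16, and T08G3.6 (chromosome V, 16445976 to 16447165) at 1.85, 1.15 and 0.89. F16G10.10 (chromosome II, 2389582 to 2390984) stood at 1.77, 1.02 and 0.67, and F02D10.2 (chromosome X, 13462668 to 13463893) at 1.71, 1.11 and 1.15. The means of these 4 genes were 1.46, 1.30, 1.15 and 1.32.

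The steadiest rises belonged to K10H10.4, K10C3.4 and F02D10.2, with SDs of 0.23, 0.24 and 0.34. K10H10.4 (chromosome II, 14500422 to 14501663) stood at 1.07, 1.01 and 1.44, a mean of 1.17 (2.26-fold; adjusted p = 0.0345). K10C3.4 (chromosome I, 9853654 to 9863495) stood at 0.80, 1.23 and 0.83, a mean of 0.95 (1.94-fold), the smallest rise that passed. dpsm-1 (chromosome I, 12551537 to 12552375) stood at 1.69, 1.99 and 1.07 (mean 1.58, 3.00-fold; adjusted p = 0.0324). F21D12.3 (chromosome II, 7319898 to 7322912) had a mean of 1.27, F57B9.1 (chromosome III, 6962340 to 6963307) of 1.24 and R11F4.2 (chromosome II, 4083054 to 4086297) of 1.17. Over the 16 genes the mean ran from 0.95 to 2.98 with a median of 1.39, and 6 of them were above 1 on every array, as were 0.156% of named genes with 3 values.

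**Figure D2:**
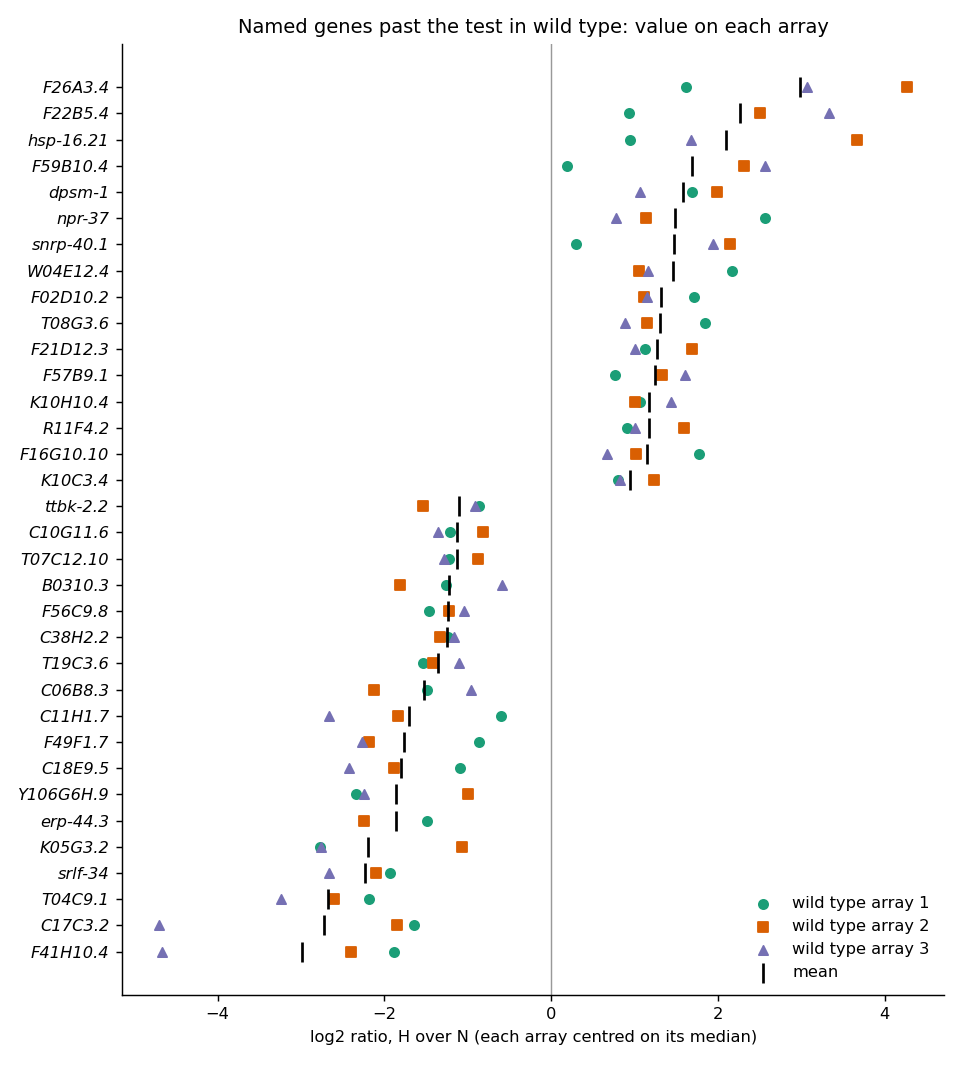
Log2 ratio of H over N on each wild type array (symbols) and the mean (bar) for the 34 named genes past the test, ordered by mean. Genes at the top such as F26A3.4 and F22B5.4 have their lowest value on array 1, F41H10.4 and C17C3.2 at the bottom are set apart by array 3, and C38H2.2 has 3 nearly equal values.

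F41H10.4 (chromosome IV, 5364559 to 5366751) had the largest fall and the lowest adjusted p of any named gene. It stood at -1.89, -2.40 and -4.67, a mean of -2.99 ± 1.48 (SD, n = 3; 7.93-fold lower; adjusted p = 0.00804 in limma). C17C3.2 (chromosome II, 5566082 to 5566692) had the same shape, at -1.65, -1.85 and -4.70, with a mean of -2.73 (adjusted p = 0.0221). In both genes array 3 lay far below the others, and arrays 1 and 2 were close together.

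T04C9.1 (chromosome III, 5993213 to 6006369) stood at -2.18, -2.61 and -3.24, the lowest value of any one-signed named gene on its weakest array. Its mean was -2.68 ± 0.53 (SD, n = 3; 6.39-fold lower; adjusted p = 0.0275). srlf-34 (chromosome II, 10312293 to 10312943), of the srlf gene family, stood at -1.93, -2.10 and -2.66, a mean of -2.23 (adjusted p = 0.00907). Of the 22 tested srlf genes it was the only one past the test, and their median was -0.14. Its annotated span overlaps that of gcy-5, which had no tested spot.

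erp-44.3 (chromosome IV, 8122649 to 8127324), of a family of thioredoxin-like proteins of the endoplasmic reticulum, stood at -1.49 and -2.24 and had no value on array 3. Its mean of -1.86 passed on those 2 arrays (adjusted p = 0.0160 in limma). Its relatives erp-44.1 and erp-44.2 were at 0.01 and -0.18 and did not pass. K05G3.2 (chromosome X, 16494930 to 16499875) and Y106G6H.9 (chromosome I, 10454189 to 10455678) were lowest on arrays 1 and 3. K05G3.2 stood at -2.77, -1.07 and -2.76, and Y106G6H.9 at -2.34, -1.0 and -2.24.

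In C11H1.7, F49F1.7 and C18E9.5 array 1 was instead nearest to 0. C11H1.7 (chromosome X, 14327700 to 14330193) stood at -0.60, -1.84 and -2.66, and F49F1.7 (chromosome IV, 4123525 to 4125757) at -0.86, -2.18 and -2.27. C18E9.5 (chromosome II, 8969980 to 8971967) stood at -1.09, -1.88 and -2.43. The means of these 3 genes were -1.70, -1.77 and -1.80.

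C38H2.2 (chromosome III, 10381773 to 10385333) gave the most even fall, at -1.24, -1.33 and -1.16, with an SD of 0.08 and an adjusted p of 0.00828. It is one of 3 passing genes with 2 spots, and its spots averaged -1.55 and -0.94. F56C9.8 (chromosome III, 7315903 to 7319509) and T19C3.6 (chromosome III, 627667 to 631521) were also even, with means of -1.24 and -1.36 and an SD of 0.22 each. T19C3.6 overlaps T19C3.5, which was at 0.84 and did not pass. ttbk-2.2 (chromosome IV, 5065673 to 5066987), of the tau tubulin kinase family, had the smallest fall, -1.11, and its 2 spots disagreed in size, at -1.72 and -0.49. The 2 spots of F57B9.1 agreed closely, at 1.29 and 1.18. C06B8.3 (chromosome V, 15484054 to 15484637) was at -1.53, B0310.3 (chromosome X, 510673 to 520981) at -1.22, T07C12.10 (chromosome V, 9959997 to 9960476) at -1.13 and C10G11.6 (chromosome I, 6289433 to 6294068) at -1.13. Over the 18 genes the mean ran from -2.99 to -1.11 with a median of -1.74.

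Array 1 was the weakest for 8 of the 16 rises and 9 of the 18 falls. Among named genes of one sign on all 3 arrays it was weakest for 41.5% of those above 0 and 33.1% of those below. The medians of the 16 rises on arrays 1, 2 and 3 were 1.10, 1.46 and 1.15, and those of the 18 falls were -1.48, -1.83 and -2.24. The number of passing named genes depended on single arrays. It was 32 without wild type array 1, 4 without array 2 and 3 without array 3, and 21 without hif-1 mutant array 3 and 22 without vhl-1 mutant array 2, which enter through the spread. Leaving out array 1 kept 5 of the 16 rises (F26A3.4, F22B5.4, hsp-16.21, F59B10.4 and snrp-40.1) and 7 of the 18 falls. None of the 16 rises passed without array 2 or without array 3. Of the falls, F41H10.4, Y106G6H.9 and K05G3.2 passed without array 2, and C06B8.3 without array 3. erp-44.3 also passed there, but it has no value on array 3, so nothing of its own was left out. With named genes tested alone none passed in limma (769 at an unadjusted p under 0.05). With the median of each place of the print run subtracted 8 passed, and with the places lacking a named spot left out 14 passed.

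The threshold fell within a dense group of genes. Just inside it lay F16G10.10 (adjusted p = 0.0493), and just outside lay chtb-1 (0.0518) and T27F6.8 (0.0529). chtb-1 stood at 0.69, 1.06 and 2.67, and T27F6.8 at 0.67, 3.82 and 2.45. On the falling side C08G5.1, at -1.28, -1.39 and -2.44, was just outside (0.0542). The genes C44B7.5, B0272.4 and nssp-51 were far from 0 on every wild type array and did not pass, with SEs of the fit of 0.565, 0.662 and 0.305. C44B7.5 stood at -2.04, -2.20 and -1.90 (adjusted p = 0.117), B0272.4 at -2.76, -2.18 and -1.50 (0.167) and nssp-51 at 1.27, 1.12 and 1.13 (0.0923). Their wild type SDs were 0.15, 0.63 and 0.09, and the SE of the fit also draws on the spread of the mutant arrays. With the wild type arrays fitted alone all 3 passed (adjusted p = 0.00622, 0.00798 and 0.0297 in limma).

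Of 34 gene lists, 26 had a tested member, 203 memberships in all, and 6 had a member past the test, 1 each, beside 0.474% of all named genes. The lists were chosen with earlier results of these data known, so nothing is read from that count. These 6 were the HIF-1 targets (F22B5.4), small heat shock proteins (hsp-16.21), endoplasmic reticulum folding (erp-44.3), splicing (snrp-40.1), G protein-coupled receptors (npr-37) and the srlf family (srlf-34). Lists are described by counts and medians of the mean log2 ratio, beside a median of -0.02 over all named genes, 47.4% of which were above 0.

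Every tested heat shock gene had a value above 0 on every wild type array, as did 1155 of the 7045 named genes with 3 values. Beside the 2 small heat shock genes these were F44E5.4 and F44E5.5, adjacent and nearly identical genes for an inducible HSP70, which refolds damaged proteins with the use of ATP. F44E5.5 stood at 1.04, 1.81 and 3.26, a mean of 2.04 ± 1.13 (SD, n = 3; adjusted p = 0.0887). F44E5.4 stood at 1.18, 1.53 and 3.18, a mean of 1.96 ± 1.07 (SD, n = 3; adjusted p = 0.102). Neither passed in the fit of all arrays or with a wild type array left out. With the wild type arrays fitted alone both did (adjusted p = 0.0298 for F44E5.5 and 0.0302 for F44E5.4 in limma). Both also passed in the mutants, with means of 2.59 and 2.45 in the hif-1 mutant and 4.06 and 4.03 in the vhl-1 mutant. As their probes can share RNA the pair may be a single measurement. The small heat shock genes were highest on array 2 and the HSP70 genes on array 3.

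Genes of the respiratory chain, which consumes oxygen in mitochondria, had no member past the test in either genome, which for so few genes is near the background of 0.474%. The 8 tested protein genes of the mitochondrial genome had a median of -0.02. The other 7 beside CYTB lay between -0.19 (ATP6) and 0.15 (ND6). CYTB, for cytochrome b, stood at -1.02 and -1.48 with no value on array 3, a mean of -1.25 (adjusted p = 0.167). Of the 16 nuclear genes 11 were above 0, with a median of 0.11 and a range from -0.85 (ndua-13, 0.34 and -2.04 on the 2 arrays with a value) to 0.60 (ndub-5).

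Among 6 translation factors none passed, and the median was -0.05. eif-2D, a factor that can deliver the initiator tRNA to ribosomes, was the lowest at -1.49, -0.20 and -1.51, a mean of -1.07 (adjusted p = 0.0759). The 4 tested subunits of eIF2B, the exchange factor that recharges eIF2 and is a control point of translation in stress, lay between -0.57 (eif-2Bbeta) and 0.28 (eif-2Bepsilon). Of 5 ribosomal protein genes, all but rpl-37.1 named for the mitochondrial ribosome, none passed, with a median of 0.10.

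None of the 32 carboxylesterase or 22 pals genes passed, where 0.474% of all named genes did, so these counts of 0 are near the background. The carboxylesterase genes (cest) had a median of -0.03, but their 3 highest members were above 0 on every array. cest-24 stood at 1.03, 2.89 and 1.78 (mean 1.90, adjusted p = 0.103), cest-12 at 1.73, 1.08 and 0.80 (mean 1.20, 0.150) and cest-27 at 1.16, 1.25 and 0.43 (mean 0.95, 0.0737). The pals genes, a family tied to the response to intracellular pathogens, had a median of -0.22 with 18.2% above 0, and their medians on arrays 1, 2 and 3 were -0.05, 0.17 and -0.68. The low values of that family lay mostly on array 3, where pals-6 was at -2.92 against 0.48 and 0.18 on arrays 1 and 2.

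Of 15 solute carrier genes 13 were above 0, with a median of 0.22. The highest, slc-25A18.2 of the mitochondrial carrier family, was at 0.53 (adjusted p = 0.394). The means of all 5 innate immunity genes were below 0, with a median of -0.37, but their median on array 3 alone was 0.09. Only irg-8, an infection response gene, was below 0 on every array, and it was the most even. It stood at -0.54, -0.91 and -0.71 (adjusted p = 0.293 in limma). The 18 neuropeptide genes had a median of 0.07 and were led by nlp-68 at 0.34, 0.72 and 1.73 (adjusted p = 0.219). Of the tissue lists, 5 collagens of the cuticle had a median of 0.06, 8 sperm genes one of -0.16, and the intestinal protease cpr-9 was at 0.12, none past the test. Lists of glycolysis, redox defence, vitellogenins, histones, muscle, germ line RNA proteins and nuclear hormone receptors had no member with a named spot.

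**Figure D3:**
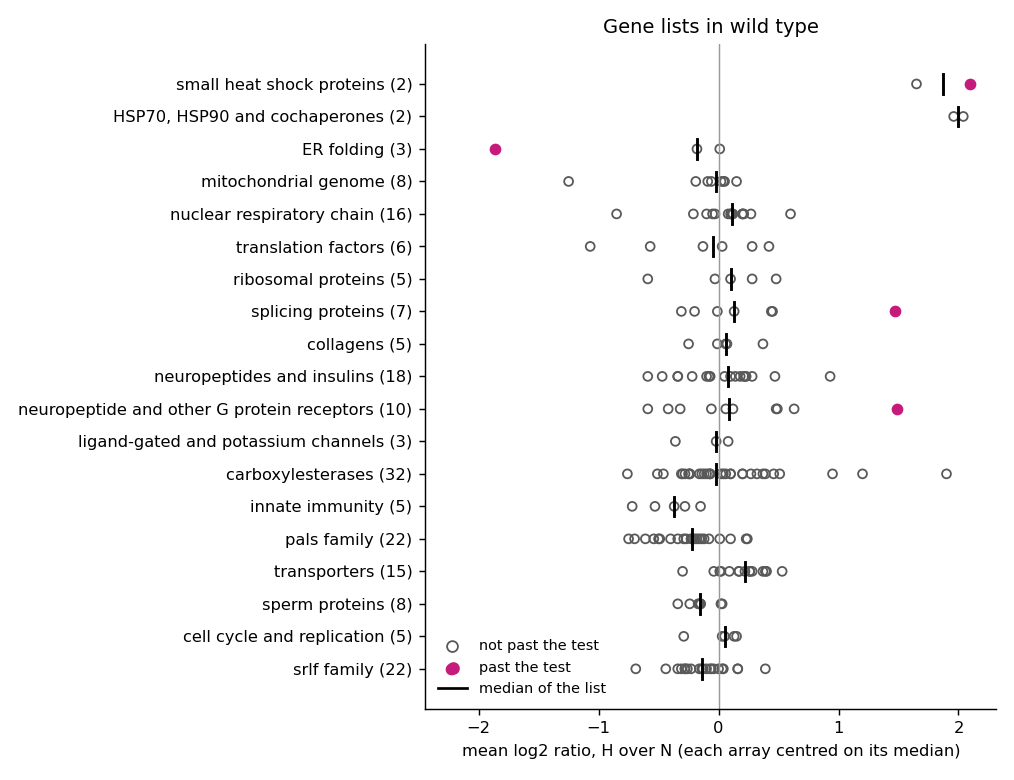
Mean log2 ratio of H over N in wild type for the tested members of each gene list with at least 3 members, and of both chaperone lists (numbers of members in brackets). Filled points passed the test and bars mark list medians. The chaperone genes lie between 1.65 and 2.10, while the medians of the other lists lie between -0.37 and 0.22.

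The passing genes were spread over the 6 nuclear chromosomes, from 0.3% of tested genes on chromosome V to 0.688% on chromosome II, where 6 rose and 3 fell. Of 68 genes next to a passing gene 32 were tested, and 16 of these had the direction of the passing gene. None of the 32 passed in limma (lowest adjusted p = 0.0959, hsp-16.20), which is near the background of 0.474% of named genes. The median of these neighbours was 0.01, and hsp-16.20 was the only one beyond 1. Over all 540 genes with at least 2 complete spots, the means of the first pair of spots correlated at 0.312 and differed by a median of 0.22.

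How far the same genes moved in the mutants was set beside these values. The 3 genotypes share one residual spread in the fit and one dye orientation, so shared calls are given only as counts. Of the 16 rises, 2 passed in the same direction in the hif-1 mutant, where 0.501% of named genes rose, and 6 in the vhl-1 mutant, where 2.55% did. dpsm-1 passed in both (1.79 and 1.42), hsp-16.21 in the hif-1 mutant (2.82), and F26A3.4, W04E12.4, F02D10.2, F16G10.10 and K10C3.4 in the vhl-1 mutant. The 9 others passed in neither mutant. Of the 18 falls, 8 passed in the hif-1 mutant, where 0.529% of named genes fell, and 14 in the vhl-1 mutant, where 3.61% did. B0310.3 and C06B8.3 passed in neither mutant. The median of the rises was 1.39 in wild type; the hif-1 mutant had 0.75 and the vhl-1 mutant 0.91. For the falls it was -1.74, -1.14 and -1.93. The genes were chosen for their wild type values, which favours larger values there.

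**Figure D4:**
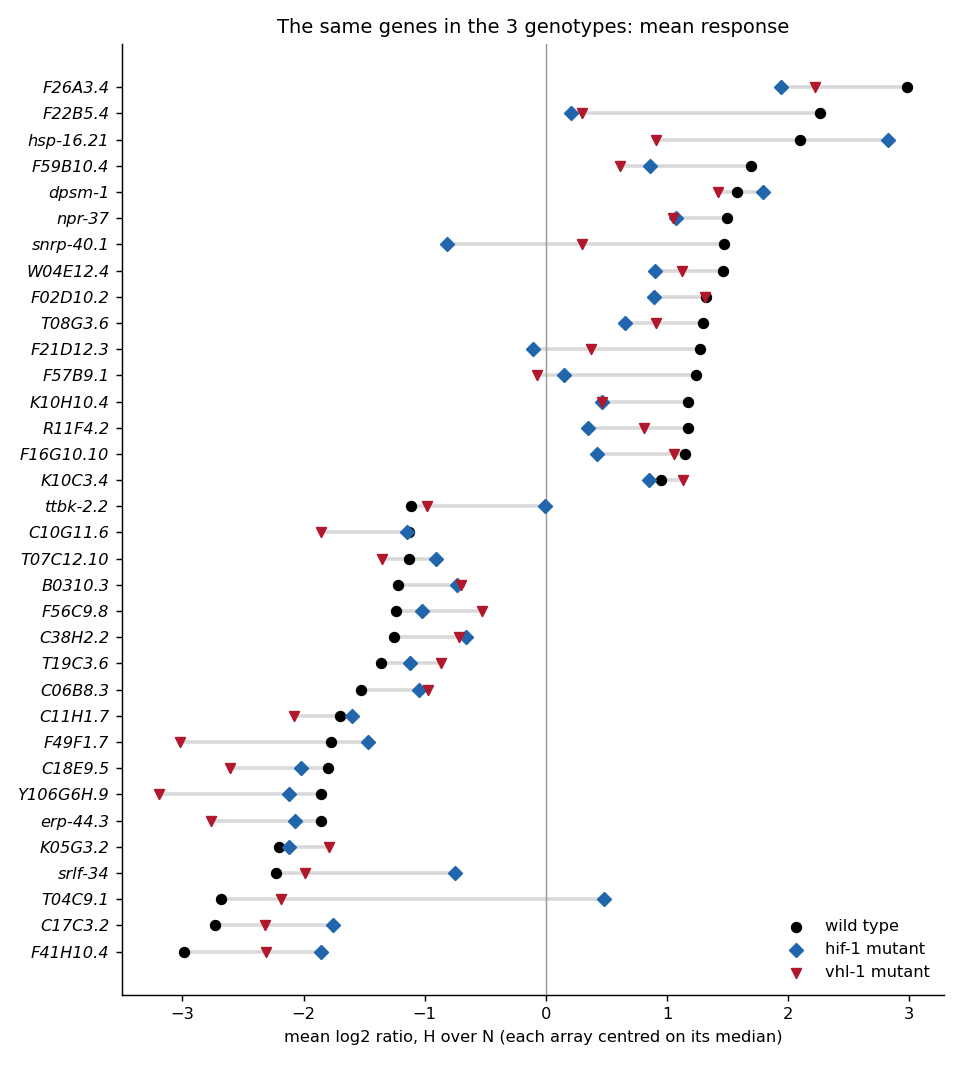
Mean log2 ratio of H over N by genotype (wild type, hif-1 mutant, vhl-1 mutant) for the 34 genes past the test in wild type. F22B5.4, F57B9.1 and F21D12.3 have both mutant means close to 0, and most genes that fell are low in all 3 genotypes. snrp-40.1, T04C9.1 and, at only -0.11, F21D12.3 have a hif-1 mutant mean on the other side of 0. None of them passed there (adjusted p = 0.188, 0.721 and 0.859 in limma). For T04C9.1 that mean rests on hif-1 mutant arrays 1 and 3, at 1.51 and -0.56.

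The wild type arrays of 3 rises, F22B5.4, F57B9.1 and F21D12.3, lay above all 6 mutant arrays, and those of 1 fall, C38H2.2, below them. Among all named genes with 9 values, 2.17% lay above and 1.94% below in this way. The passing genes were chosen for wild type values far from 0, which favours such a separation. Nothing is therefore read from these counts. F22B5.4 was at 0.35, -0.33 and 0.60 on the hif-1 mutant arrays and at 0.09, 0.08 and 0.74 on the vhl-1 mutant arrays. Its wild type response exceeded the mean of both mutants by 2.00 (SE 0.447; adjusted p = 0.259 in limma), which did not pass. F57B9.1 was at 0.15 and -0.07 in the hif-1 and vhl-1 mutants and exceeded their mean by 1.20 (SE 0.331; adjusted p = 0.313). F21D12.3 was at -0.11 and 0.37 and exceeded their mean by 1.15 (SE 0.335; adjusted p = 0.349). chtb-1 (chromosome III, 9347768 to 9355462), just outside the threshold in wild type, was below 0 on all 6 mutant arrays, from -1.16 to -0.21. It exceeded the mean of the mutants by 2.20 (SE 0.411; adjusted p = 0.259), the largest such difference among the genes shown in the plot of single arrays.

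Against the mean of both mutants 1 of 20858 features (0.00479%) passed, an unnamed spot, and 0 of 7179 named genes did in limma, with 614 named genes (8.55%) at an unadjusted p under 0.05. Against the hif-1 mutant alone 0 features passed (1239, or 5.94%, at an unadjusted p under 0.05), and against the vhl-1 mutant alone 1 did (0.00479%; 2108, or 10.1%, unadjusted). The named gene with the lowest p against both was B0280.7 (chromosome III, 7110302 to 7111893). It stood at 0.15, 0.55 and 0.75 in wild type and between -1.72 and -0.97 on all mutant arrays, a difference of 1.91 (SE 0.294; adjusted p = 0.213). slfl-3 was at 0.83, 0.55 and 0.73 in wild type and between -1.04 and -0.50 in the mutants, a difference of 1.49 (adjusted p = 0.259). C30G12.1 stood at 0.14, 0.10 and 0.15 in wild type against -1.34 to -0.96 in the mutants. In B0280.7, C30G12.1, ZK470.6, R12E2.8, F01D5.5, F41G3.10 and C05C9.1 the wild type mean lay between 0.13 and 0.48, and both mutant means were farther from 0 than it and negative.

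nssp-76 (chromosome X, 2442970 to 2443404) ran the other way, at 0.07, -1.69 and -1.43 in wild type and above 0 on all 6 mutant arrays, a difference of -2.04 (SE 0.407; adjusted p = 0.259). irg-8 was below 0 on all 3 wild type arrays and had mutant means of 0.79 and 0.72, a difference of -1.48 (adjusted p = 0.261 in limma). Without wild type array 1 the count of features that differed from both mutants was 15, of which 7 were named. These were F22B5.4 (2.66), snrp-40.1 (2.31), K01D12.5 (2.24), C18E9.7 (2.19), T24C12.4 (1.91), nssp-76 (-2.59) and rcd-1 (-2.77), with adjusted p from 0.0384 to 0.0429. On array 1 K01D12.5, C18E9.7 and T24C12.4 were at -0.16, -0.39 and -0.15, and on arrays 2 and 3 they were between 1.10 and 1.85. Without wild type array 2 or array 3 the count was 0.

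**Figure D5:**
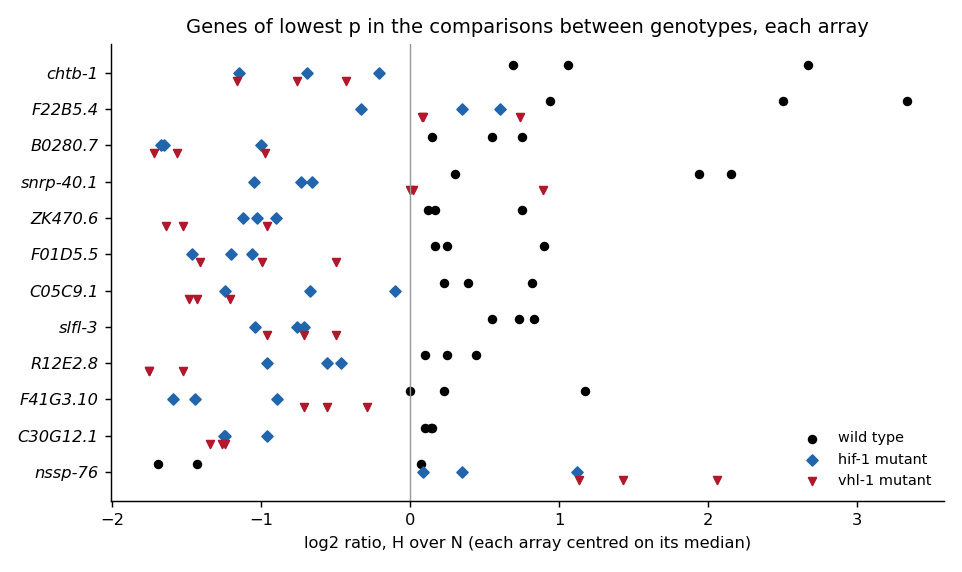
Log2 ratio of H over N on each array (symbols by genotype) for F22B5.4, chtb-1 and the 10 named genes with the lowest p in the comparisons between wild type and the mutants. The 3 wild type values lie above all 6 mutant values in every gene but snrp-40.1, where they overlap, and nssp-76, where they lie below; no difference passed the test over all features.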

How the data were processed

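The deposited values, 1 per spot on each of 9 arrays, were taken to be log2 channel ratios and, as deposited, stood near 0 in the median of each array (wild type medians, sign turned, 0.062, -0.048 and 0.01). Per the labels, H was in Cy3 and N in Cy5. The steps from image to ratio are not stated in the sources used here, and signal over background is unknown. The deposited sign was reversed, null (3303) and empty (1156) cells were missing, each array was centred on its median, and the spots of a gene were averaged. Names were updated through RefSeq WBcel235, which matched 7741 of 7774 named spots.

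limma 3.58.1 in R 4.3.3 (lmFit, eBayes; prior degrees of freedom 6.95, residual degrees of freedom 6) fitted 1 mean per genotype to all arrays. The contrasts were wild type against 0, against each mutant and against the mean of both. Benjamini-Hochberg adjustment covered 20858 features, and an adjusted p under 0.05 passed. The median SE was 0.266 for wild type and 0.326 for the difference from both mutants, and the number of arrays limits the precision. The procedure was tested on simulated data. The fit did not pair arrays by replicate number, and whether a shared number marks a shared batch is not known. Deviations of same-numbered arrays of different genotypes correlated at -0.204 to 0.272, and those of differently numbered arrays at -0.257 to 0.27.

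The genes named were all those past the test in wild type; the 6 highest and 6 lowest by their weakest wild type array; the measured members of the HIF, heat shock and mitochondrial genome lists; the 3 of lowest p in each other list; and the 5 of lowest p in each contrast. The comparisons, genes and lists were chosen with earlier results of these data known. After values were seen, the chemoreceptor list was narrowed and the srlf list added, and the genes beside the threshold, the highest and lowest list members, the neighbours and the genes called without array 1 were named. Alternatives were other centring, scaling, features, variance models and arrays. Sequences are not shown.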

Additional observations from a re-analysis of the deposited data

Results flagged for a closer look

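The unnamed spot probe_21826 differed between genotypes in the test of the difference itself. Its log2 ratios of H over N were 0.98, 1.02 and 0.41 in wild type, -1.45, -1.34 and -1.55 in the hif-1 mutant and -2.54, -1.50 and -2.17 in the vhl-1 mutant. Wild type exceeded the vhl-1 mutant by 2.87 (SE 0.342; adjusted p = 0.0284 in limma) and the mean of both mutants by 2.56 (SE 0.296; adjusted p = 0.0206). Its wild type mean of 0.80 alone did not pass (adjusted p = 0.155). The first difference was lost in 11 of 20 alternatives and the second in 8 of 19.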

How the results depend on the processing

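The 34 named genes kept their direction in all 663 combinations of gene and alternative that could be fitted, and lost the call in 238. The kept direction is no test. Many alternatives leave the wild type mean as it was, and the genes were chosen for means far from 0. The 296 features and 34 named genes that changed in wild type became 540 (70.6% lower, against 84.1%) and 96 with arrays scaled to one spread, 60 and 8 with print layout centring, 86 and 14 without the places lacking a named spot, and 0 and 0 with named genes alone. With the wild type arrays fitted alone, 429 features and 50 named genes passed. In that fit 10 of the 16 rises and 15 of the 18 falls kept their call. With print layout centring 2 of the 16 rises and 6 of the 18 falls kept theirs. Without the places lacking a named spot 2 rises and 12 falls did. In both cases the 2 rises were F26A3.4 and F22B5.4. With arrays scaled to one spread all 16 rises and 18 falls kept their call. Leaving out 1 array gave 82 to 376 features and 3 to 43 named genes. The 0 features differing from the hif-1 mutant ranged from 0 to 1 with an array left out. The 1 feature differing from the vhl-1 mutant ranged from 0 to 1, and was 0 with scaling, print block centring, named genes alone, the replicate block or only the genotypes compared. The 1 feature differing from the mean of both mutants ranged from 0 to 15, and was 0 with scaling, print block centring or named genes alone. With replicate number as a block 320 features and 38 named genes passed in wild type; the samples share only a number, and 9 of the 16 rises and 15 of the 18 falls kept their call. Of 1611 fits of the other named genes, 63 gained a call, and 3 of 800 in the difference from both mutants did. Some alternatives also differ in the features tested or arrays fitted, and the cause of these changes was not tested. With named genes alone, F26A3.4 kept its mean of 2.98 while its adjusted p rose from 0.00916 to 0.0511 in limma. Single spots were run for counts only, and no fit with only the genotypes compared exists for the difference from both mutants, which uses all arrays.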
